A study of Mus musculus with 18 samples.

Results

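Keratin genes were followed through mouse embryonic stem (ES) cells and the neural cultures made from them. Members were the gene rows whose symbol is Krt followed by a number alone, and 48 of the 23420 gene symbols in the count files met this rule. RNA from the wild type E14 line was sequenced in 18 libraries, 2 in each of 9 groups. ES cells were grown without feeders in LIF on gelatin and received 1 µM GW3965, 1 µM LG268 or both for 24 h, or stayed as the day 0 control. GW3965 is an agonist of the liver X receptors (LXR), and LG268 is an agonist of the retinoid X receptors (RXR), the partners of LXR on DNA. For neural differentiation the same line formed embryoid bodies, with 5 µM retinoic acid present over 4 days, and was then plated on laminin and poly-ornithine in N2 medium. These cultures were sampled at day 16 with 1 µM GW3965 and at day 17 with 1 µM GW3965, and without ligand at days 8, 16 and 17. All differentiated groups, with or without ligand, therefore shared the retinoic acid step. How long GW3965 was present at days 16 and 17 is not in the labels; deposited file names read as exposure since day 8 in the day 16 group and for 24 h in the day 17 group. Another file name of the group labelled with both ligands reads as an untreated one, and the labels were followed. All groups came from 1 cell line, and nothing says that 2 libraries of a group came from separate cultures, so every p-value measures the spread between libraries, which may be technical.

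Keratins are the intermediate filament proteins of epithelial cells. Each filament is built from pairs of 1 acidic type I and 1 basic type II keratin, so a cell makes members of both types together. Simple, single-layered epithelia use Krt8 with Krt18 and Krt19, and this set is also the keratin of early embryos. The basal layer of stratified epithelia, such as epidermis, uses Krt5 with Krt14 and Krt15, cells that leave this layer turn on Krt1 with Krt10 in epidermis or Krt4 with Krt13 in moist linings such as the oesophagus, and other members build the hair and its root sheath. Neurons use other intermediate filaments and are not known for keratins.

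The libraries held between 16.75 and 44.79 M reads assigned to genes (M, mega), with a median of 23.51 M, and levels are given as CPM, counts per M assigned reads, scaled by edgeR's TMM factors. Before TMM scaling, a count of 3 in a library equals 0.067 to 0.179 CPM. The floor used below is 3 counts over both libraries of a group, which is a lower CPM. The 4 day 17 libraries had been counted differently: their files list 31.84 to 33.53% of reads with several alignments, where the 14 other libraries list 0%, so a change from day 16 to day 17 cannot be told apart from a change in counting. Pluripotency genes (9, among them Pou5f1 and Nanog) summed to 2708 to 3008 CPM in the ES groups and to 26.6 to 79.3 CPM in the differentiated ones. Neuronal genes (7, among them Tubb3 and Map2) summed to 381 to 483 CPM in the ES groups and to 1249 to 3217 CPM in the differentiated ones, and no neuronal marker stood at 0 in any library.

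Every one of the 48 keratins had at least 1 count in some library, against 2530 of all symbols with none. Of the 48, 21 never passed 9 counts in any library, 27 reached 10 or more, and 25 passed the filter on low counts and were tested; a gene could pass that filter through a single group in which it was high. Counted by the epithelium that uses them, 5 of 5 simple, 5 of 5 basal and activated, 9 of 11 suprabasal, 2 of 9 inner root sheath and companion layer, 2 of 13 hair shaft and 4 of 5 other keratins reached 10 counts. Krt25 of the inner root sheath and Krt83 of the hair shaft reached 11 counts in 1 library each and were not tested. Of the 47 symbols matched to GENCODE M21, 25 lie on chromosome 11, where the type I genes cluster, and 22 on chromosome 15, which holds the type II genes and Krt18.

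**Figure D1:**
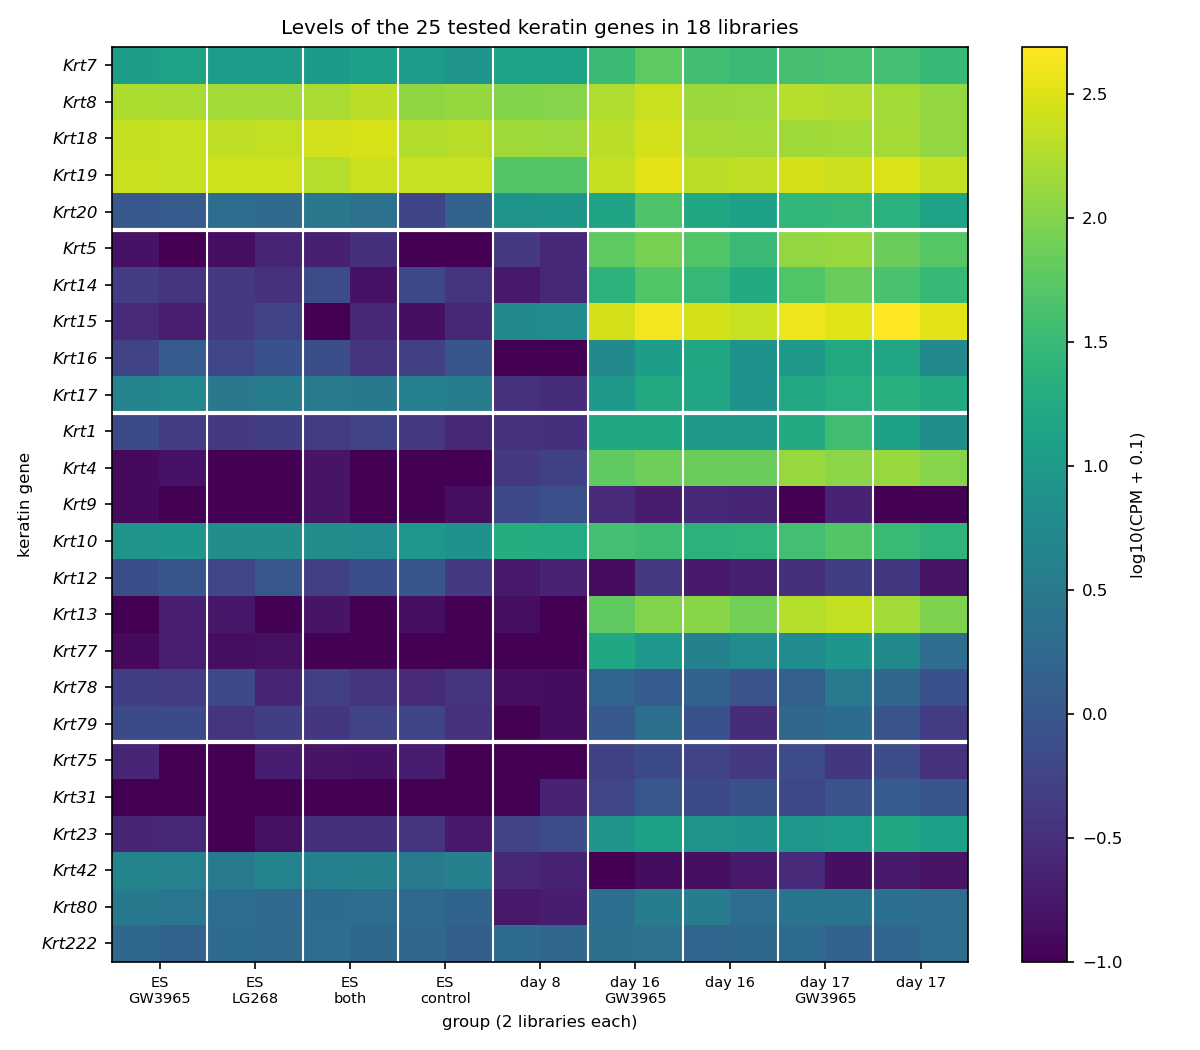
Levels of the 25 tested keratins (rows) in the 18 libraries (columns, 2 for each group) as log10 of CPM plus 0.1, with white lines between simple, basal and activated, suprabasal and other classes. Krt8, Krt18 and Krt19 are bright in every group with a dip of Krt19 at day 8, while Krt5, Krt14, Krt15, Krt4 and Krt13 are dark in ES cells and bright from day 16.

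Keratins took up a small and changing share of the RNA. They made 0.0536 to 0.0556% of gene counts in ES control, 0.0356 to 0.0359% at day 8, 0.113 to 0.126% at day 16 and 0.126 to 0.173% at day 17. The mix changed as well. Simple keratins held 95.95 to 96.57% of the keratin CPM in ES control, 91.5 to 91.66% at day 8, 46.6 to 52.07% at day 16 and 40.43 to 42.51% at day 17. Basal and activated keratins summed to 4.87 ± 0.0459 CPM in ES control, 6.5 ± 0.277 CPM at day 8, 350 ± 64.1 CPM at day 16 and 547 ± 128 CPM at day 17 (SD, n = 2 each). Suprabasal keratins summed to 9.97 ± 1.81 CPM in ES control, 20.1 ± 0.0909 CPM at day 8, 204 ± 17.8 CPM at day 16 and 282 ± 69.1 CPM at day 17 (SD, n = 2 each). The number of keratins at 10 CPM or more in both libraries of a group was 3 in ES control, 5 at day 8, 11 at day 16 and 13 at day 17. In such bulk RNA, a change in the number of cells that make a keratin and a change in its RNA per cell cannot be told apart.

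**Figure D2:**
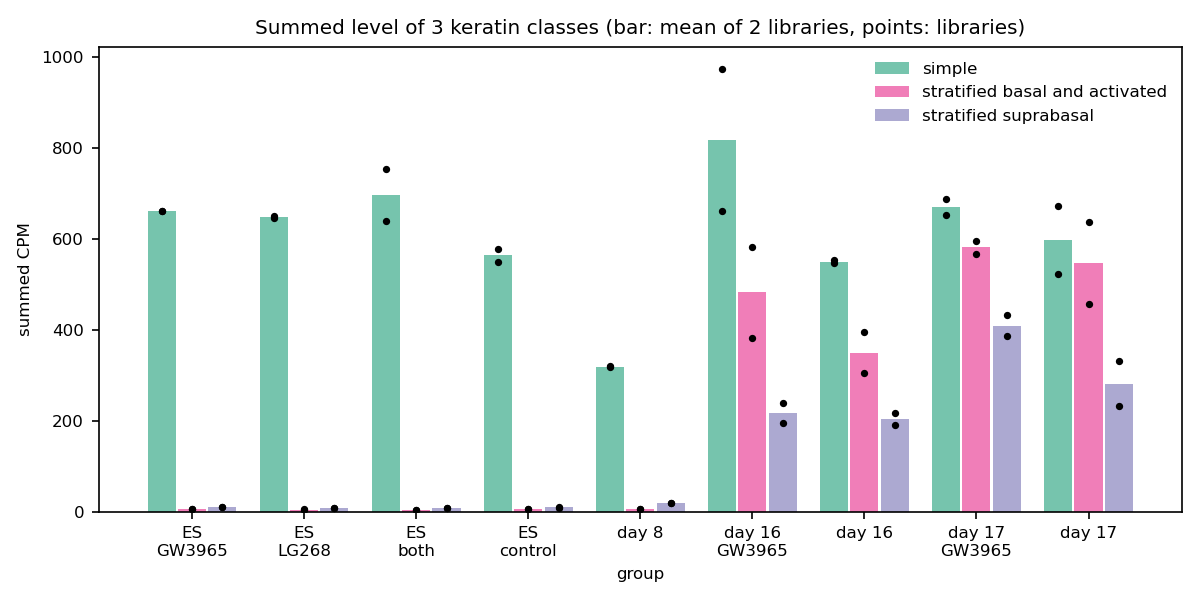
Summed CPM of simple, basal and activated, and suprabasal keratins in each group; bars are means of 2 libraries and points are the libraries. The simple class is high in ES cells, lower at day 8 (319 CPM on average) and high again later, while both stratified classes stay under 21 CPM on average until day 8 and exceed 200 CPM in every group from day 16.

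Per kilobase of exon, the order also changed among the keratins given on this scale. These were Krt1, Krt4, Krt5, Krt7, Krt8, Krt10, Krt13, Krt14, Krt15, Krt18 and Krt19. In ES control Krt18 (133 ± 7.52 CPM per kb) and Krt19 (129 ± 1.79 CPM per kb) stood side by side within their spread. Krt8 came next with 63.0 ± 3.31 CPM per kb, and Krt10 followed at 4.01 ± 0.566 CPM per kb (SD, n = 2 each). All annotated exons of a gene were joined for its length, which gave 7049 bases for Krt7 and 2114 for Krt10. Before this division Krt7 had 9.64 CPM and Krt10 had 8.47 CPM on average in ES control, with overlapping libraries, so the place of Krt7 rests on that length. At day 8 Krt18 led with 99.1 ± 3.16 CPM per kb, before Krt8 with 53.1 ± 1.65 and Krt19 with 27.4 ± 0.104 CPM per kb. At day 16 Krt15 led with 149 ± 19.1 CPM per kb, followed by Krt19 at 112 ± 4.08 and Krt18 at 107 ± 1.70 CPM per kb, which did not separate beyond their spread. At day 17 Krt15 reached 238 ± 55.4 CPM per kb, against 146 ± 27.7 for Krt19 and 95.7 ± 16.0 for Krt18. The type II partner of Krt15 in basal cells, Krt5, reached 18.49 ± 5.09 CPM per kb at day 16 and 27.7 ± 5.22 at day 17. Krt8 stayed below Krt18 in all 18 libraries on this scale, at 0.444 to 0.946 times its level.

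Over the first 8 days of differentiation keratins moved in both directions, as all genes did. In the test of day 8 against ES control, 16 of the 25 tested keratins were called at an adjusted p below 0.05 by edgeR's quasi-likelihood test, 8 higher and 8 lower. Of all genes tested, 78.7% were called, 39.7% higher and 39.1% lower. The median log2 fold change was -0.19 over the keratins and 0 over all genes. This keratin median was the value of Krt13, which had 1 count at day 8 and 1 in ES control. Such counts are under the floor and give no fold, so the median shows no shift of the family. The share of keratins called was thus below that of all genes.

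Krt19, the small simple keratin without a tail domain, fell most among the abundant members. It had 50.9 and 50.6 CPM at day 8, against 236 and 241 CPM in ES control. The groups were far apart, with a log2 fold change of -2.23 (SE 0.151, adjusted p = 2.86e-11, edgeR). The other abundant simple keratins moved less. Krt18 had 146 and 139 CPM at day 8 and 184 and 199 CPM in ES control, a log2 fold change of -0.43 (SE 0.103, adjusted p = 0.000842, edgeR). Krt8 had 102 and 106 CPM at day 8 and 119 and 128 CPM in ES control; its groups did not overlap, but its log2 fold change of -0.25 (SE 0.117, adjusted p = 0.0574, edgeR) missed the threshold. Leaving the filter out, using DESeq2 size factors or its Wald test, or fitting these groups alone brought the adjusted p of Krt8 to between 0.000544 and 0.0462.

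The other 2 simple keratins went up. Krt7, found in ducts and bladder, had 13.8 and 13.6 CPM at day 8 and 10.9 and 8.38 CPM in ES control (log2 fold change 0.51, SE 0.216, adjusted p = 0.037, edgeR); the call was lost with limma-voom (adjusted p = 0.126) and when any of 3 libraries was left out (up to 0.27). Krt20, known from intestine and Merkel cells, had 8.09 and 8.92 CPM at day 8, against 0.484 and 1.34 CPM in ES control, a 9.08-fold difference (adjusted p = 2.07e-05, edgeR).

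Among stratified keratins, Krt15 and Krt10 were already raised. Krt15, the basal keratin known from the hair follicle bulge, had 5.69 and 6.17 CPM at day 8 and 0.044 and 0.158 CPM in ES control (log2 fold change 5.77, SE 0.66, adjusted p = 1.02e-07, edgeR). Krt10, the type I keratin of the epidermal suprabasal layers, had 18.92 and 18.49 CPM at day 8, against 9.32 and 7.63 CPM in ES control, a 2.21-fold difference (adjusted p = 2.05e-07, edgeR). Neither gene overlapped between the groups. Krt1, the type II partner of Krt10, stayed at 0.232 and 0.229 CPM at day 8 and 0.308 and 0.158 CPM in ES control, without a call (adjusted p = 0.999, edgeR).

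Several called keratins rested on few reads. Krt4 had 21 counts over both day 8 libraries and 0 in ES control, at least 5.96-fold higher against a floor of 3 counts over the group. Krt5 had 13 counts at day 8 and 0 in ES control, at least 3.69-fold higher by the same floor, and its call was lost in 4 of 11 alternatives (limma-voom and 3 fits with 1 library left out, adjusted p up to 0.124). Krt9, the keratin of footpad skin, had 35 counts at day 8 and 1 in ES control, a ratio of 29.8 with a counting interval of 5.01 to 1210. Its level of 0.614 CPM at day 8 was the highest of any group, and no other tested keratin peaked there. Krt23 had 0.542 CPM on average at day 8 and 0.171 CPM in ES control (adjusted p = 0.0121, edgeR), and lost its call in 3 of 12 alternatives (up to 0.156).

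Low keratins of the ES cells were lost by day 8. Krt17, a keratin of hair follicles and wounded skin, had 0.232 and 0.196 CPM at day 8, against 3.87 and 3.60 CPM in ES control (adjusted p = 4.03e-07, edgeR). Krt42 had 0.155 and 0.131 CPM at day 8 and 3.30 and 3.95 CPM in ES control (adjusted p = 2.97e-09, edgeR), and it stayed at or below 0.179 CPM in every later library. Krt80 had 0.0774 and 0.098 CPM at day 8 and 1.76 and 1.46 CPM in ES control (adjusted p = 4.56e-07, edgeR). Krt16, a partner induced with Krt6 in injured skin, had 0 counts at day 8 and 31 in ES control, at least 12.1-fold lower; 22 of the 31 came from ES control replicate 2, without which the call was lost (adjusted p = 0.0607, edgeR). Krt12, the corneal keratin, had 0.0774 and 0.131 CPM at day 8 and 0.879 and 0.316 CPM in ES control (log2 fold change -2.42, SE 0.833, adjusted p = 0.0123, edgeR), and lost the call in 2 of 10 alternatives. For Krt12, 42.0% of 50-base stretches recur in A830036E02Rik, so its reads are uncertain. Krt79, known from the opening of the hair follicle, had 1 count at day 8 and 17 in ES control, 20-fold lower with a counting interval of 3.13 to 835, and its call was lost without ES control replicate 1 (adjusted p = 0.0501, edgeR).

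Genes that anchor keratins or join epithelial cells fell over the same interval. Of 17 desmosome and anchorage genes, 0 were called higher and 15 lower at day 8 against ES control, and of 19 junction and epithelial splicing genes 1 was higher and 18 lower. Perp, a desmosome protein, had 5.32 ± 1.12 CPM at day 8 and 59.4 ± 0.438 CPM in ES control, and the adherens junction cadherin Cdh1 had 112 ± 5.64 CPM at day 8 and 1059 ± 34.3 CPM in ES control (SD, n = 2 each). Of 13 epithelial transcription factors, 4 were higher and 9 lower. Of 14 other intermediate filament genes, 6 were higher and 6 lower. Over all genes tested, 39.7% were called higher and 39.1% lower, so the split of the other intermediate filament genes was near that of all genes. The 8 epidermal and surface ectoderm markers summed to 40.8 to 40.9 CPM at day 8 and 126 to 130 CPM in ES control, with 2 called higher and 4 lower. Of the 8 mesenchyme markers 8 rose, of the 8 endoderm markers 8 rose, and of the 8 trophoblast markers 3 rose and 4 fell; the part of these cell types in the keratin changes was not tested.

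Between day 8 and day 16 the stratified keratins appeared. In the test of day 16 against day 8, 20 of the 25 tested keratins were called, 19 higher and 1 lower, where 61.6% of all genes tested were called in either direction, 29.4% higher and 32.2% lower. The median log2 fold change was 4.28 over the keratins and -0.04 over all genes, and several of these keratins passed the filter only through the later groups. The 4.28 was the value of Krt79, with 25 counts at day 16 and 1 at day 8, so its size is uncertain. The counts did not move by over 1.5 times under any alternative: 18 or 19 keratins were called when 1 library was left out.

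All 5 basal and activated keratins rose. Krt15 had 286 and 239 CPM at day 16, against 5.69 and 6.17 CPM at day 8 (log2 fold change 5.46, SE 0.207, adjusted p = 4.07e-14, edgeR). Krt5, the basal type II keratin, had 48.5 and 32.7 CPM at day 16 and 0.310 and 0.163 CPM at day 8 (log2 fold change 7.42, SE 0.347, adjusted p = 2.15e-12, edgeR). Krt14, its type I partner, had 28.8 and 17.8 CPM at day 16 and 0.0774 and 0.163 CPM at day 8 (log2 fold change 7.48, SE 0.567, adjusted p = 9.46e-10, edgeR). Day 16 libraries lay far above day 8 libraries for each of these genes, and in each the first day 16 library was the higher one. Krt17 rose as well, to 15.0 and 7.63 CPM at day 16, against 0.232 and 0.196 CPM at day 8 (adjusted p = 1.52e-09, edgeR). Krt16 had 672 counts at day 16 and 0 at day 8, at least 209-fold higher, but 37.6% of its 50-base stretches recur in other genes, so its reads are uncertain. The same share was 13.9% for Krt14, mostly with Krt16, and 12.2% for Krt5, mostly with Krt6a.

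Suprabasal keratins rose beside them. Krt13, the type I keratin of moist stratified linings, had 106 and 80.3 CPM at day 16 and 0.0387 and 0 CPM at day 8. In counts this was 5504 at day 16 and 1 at day 8, a ratio of 5130 with a counting interval of 920 to 203000. Krt4, its type II partner, had 71.3 and 69.2 CPM at day 16 and 0.310 and 0.425 CPM at day 8 (log2 fold change 7.54, SE 0.222, adjusted p = 1.31e-14, edgeR). The epidermal pair differed within itself. Krt1 had 9.47 and 9.53 CPM at day 16, against 0.232 and 0.229 CPM at day 8, a 40.4-fold difference (adjusted p = 2.54e-09, edgeR), while Krt10 had 23.5 and 25.3 CPM at day 16 and 18.92 and 18.49 CPM at day 8, a 1.31-fold difference (adjusted p = 0.0107, edgeR) that was lost without day 16 replicate 2 (adjusted p = 0.109) or without either day 8 library (0.0507 and 0.0801). Krt77 had 325 counts at day 16 and 0 at day 8, at least 101-fold higher. Krt78 (ratio 27.5, counting interval 7.28 to 232) and Krt79 (ratio 23.3, interval 3.81 to 956) rose at levels near 1 CPM or below, and the call of Krt79 was lost without day 16 replicate 1 (adjusted p = 0.0596, edgeR). Krt9 was the keratin that fell, to 0.165 and 0.138 CPM at day 16, against 0.542 and 0.686 CPM at day 8 (adjusted p = 0.0203, edgeR); 4 of 11 alternatives lost this call, with adjusted p up to 0.241.

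Simple keratins moved less. Krt19 returned to 203 and 214 CPM at day 16, against 50.9 and 50.6 CPM at day 8 (log2 fold change 2.04, SE 0.15, adjusted p = 6.08e-10, edgeR). Krt7 had 36.1 and 33.0 CPM at day 16 and 13.8 and 13.6 CPM at day 8, a 2.52-fold difference (adjusted p = 6.2e-06, edgeR). Krt8 had 136 and 142 CPM at day 16 and 102 and 106 CPM at day 8, a 1.34-fold difference (adjusted p = 0.00361, edgeR). Krt18 had 155 and 152 CPM at day 16 and 146 and 139 CPM at day 8, and its log2 fold change of 0.11 (95% interval -0.11 to 0.32, adjusted p = 0.382, edgeR) was not called. Krt20 was also without a call (adjusted p = 0.0777, edgeR). Of the remaining genes, Krt23 rose 14.1-fold and Krt80 29.6-fold, the hair keratin Krt31 rose to 0.576 and 0.716 CPM at day 16, against 0 and 0.131 CPM at day 8 (adjusted p = 0.00306, edgeR), and Krt75 of the companion layer had 23 counts at day 16 and 0 at day 8, at least 7.14-fold higher. For Krt31, 28.1% of 50-base stretches recur in other genes, mostly Krt34, so its reads are uncertain.

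Epithelial companions rose in part. At day 16 against day 8, 15 of 17 desmosome and anchorage genes were higher and 0 lower, 15 of 19 junction and splicing genes were higher and 2 lower, and 8 of 13 epithelial transcription factors were higher and 3 lower. The share over all genes tested was 29.4% higher and 32.2% lower. Trp63, which encodes p63, the transcription factor of stratified epithelia, had 10.4 ± 0.888 CPM at day 16 and 0.898 ± 0.207 CPM at day 8 (adjusted p = 9.94e-11, edgeR). The desmosomal genes Dsg3 (5.41 ± 1.14 CPM at day 16, 0.0744 ± 0.059 CPM at day 8) and Perp (65.7 ± 4.33 CPM at day 16, 5.32 ± 1.12 CPM at day 8) rose too (SD, n = 2 each). Ivl, a component of the cornified envelope, had 4.39 ± 0.448 CPM at day 16 and 0.0327 ± 0.0462 CPM at day 8. Of the 8 epidermal and surface ectoderm markers 6 were higher and 1 lower, and their sum was 65.8 and 59.0 CPM at day 16 and 40.9 and 40.8 CPM at day 8. Of the 8 mesenchyme markers 7 rose, and they summed to 10240 and 11650 CPM at day 16, against 1677 and 1959 CPM at day 8. The part of either cell type in the keratin levels was not tested.

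The step to day 17 was smaller. In the test of day 17 against day 16, 8 of the 25 keratins were called, 7 higher and 1 lower, where 56.2% of all genes tested were called, 26.8% higher and 29.5% lower. Krt4 had 130 and 104 CPM at day 17 and 71.3 and 69.2 CPM at day 16 (1.67-fold, adjusted p = 2.1e-05, edgeR), and Krt15 had 489 and 350 CPM at day 17 and 286 and 239 CPM at day 16 (1.60-fold, adjusted p = 0.000621, edgeR). Krt23 had 15.8 and 12.2 CPM at day 17 and 7.90 and 7.65 CPM at day 16 (1.81-fold, adjusted p = 0.00164, edgeR). These 3 genes stayed called in all leave-one-out fits. Krt5 (1.51-fold, adjusted p = 0.00511), Krt14 (1.58-fold, 0.0416), Krt17 (1.78-fold, 0.0077) and Krt19 (1.30-fold, 0.0267) were called by edgeR, and each lost its call without day 16 replicate 2 or day 17 replicate 1. Krt9 had 0 counts at day 17 and 9 at day 16, at least 2.01-fold lower, and lost its call in 7 of 9 alternatives. Krt8 (log2 fold change -0.02, 95% interval -0.26 to 0.22) and Krt18 (-0.15, interval -0.37 to 0.06) were not called, and the day 17 and day 16 libraries of both genes overlapped. Since the day 17 files were counted in another way, these differences cannot be told apart from the counting.

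In undifferentiated ES cells the abundant simple pair Krt8 and Krt18 stood higher with ligand by less than 1.5-fold, and was called with both ligands alone. Krt8 had 171 and 169 CPM with GW3965, 151 and 150 CPM with LG268 and 166 and 204 CPM with both, against 119 and 128 CPM in ES control. Krt18 had 228 and 237 CPM with GW3965, 220 and 223 CPM with LG268 and 273 and 289 CPM with both, against 184 and 199 CPM in ES control. For both genes all 6 libraries with ligand lay above both control libraries. The ligand groups share these control libraries, so low controls would give the same order. The share of all genes that separate this way was not taken.

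With both ligands, 2 of the 25 keratins were called against ES control, both higher, where 11.3% of all genes tested were called and 4.83% were called higher. These were Krt8, at 1.496-fold (log2 fold change 0.58, SE 0.116, adjusted p = 0.00312, edgeR), and Krt18, at 1.47-fold (log2 fold change 0.55, SE 0.103, adjusted p = 0.00176, edgeR). The call of Krt8 was lost without ES control replicate 1 (adjusted p = 0.0507, edgeR), and that of Krt18 was kept in every alternative. Keratins as a group had a median log2 fold change of 0.30 with both ligands, and all genes had -0.0035. The keratin median includes members at or under the floor in both groups, such as Krt77, which give no fold.

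Single ligands gave no call. With GW3965 alone, 0 of the 25 keratins were called by edgeR against ES control, and 3 had an unadjusted p below 0.05; 0.32% of all genes tested were called, 0.309% higher and 0.0117% lower. Krt8 was 1.38-fold higher (log2 fold change 0.46, 95% interval 0.22 to 0.70, adjusted p = 0.141) and Krt18 was 1.21-fold higher (0.28, interval 0.06 to 0.49, adjusted p = 0.643), both by edgeR. DESeq2's Wald test called 1 keratin, Krt8 (adjusted p = 0.0228), limma-voom called 0, and a fit of these groups alone called Krt8 and Krt18. With LG268 alone, 0 of the 25 were called by edgeR and 3 had an unadjusted p below 0.05, with 0.851% of all genes tested called. Krt8 was 1.22-fold higher (0.28, interval 0.04 to 0.52, adjusted p = 0.422) and Krt18 was 1.16-fold higher (0.21, interval -0.0041 to 0.42, adjusted p = 0.552), both by edgeR. DESeq2's Wald test and limma-voom also called 0 with LG268, and a fit of these groups alone called 3.

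The ligands were then set against each other at the same dose and time, in 3 pairs. No keratin was called by edgeR in LG268 against GW3965 (2 at an unadjusted p below 0.05, 0.6% of all genes called), in both ligands against GW3965 alone (3 at an unadjusted p below 0.05, 10.7% of all genes called, 3.68% higher and 6.98% lower) or in both ligands against LG268 alone (3 at an unadjusted p below 0.05, 4.21% of all genes called, 1.63% higher and 2.57% lower). For Krt8 the log2 difference was -0.18 (95% interval -0.42 to 0.06) for LG268 against GW3965, 0.12 (interval -0.12 to 0.36) for both against GW3965 and 0.30 (interval 0.06 to 0.54) for both against LG268. For Krt18 it was -0.07 (interval -0.28 to 0.15), 0.28 (interval 0.06 to 0.49) and 0.34 (interval 0.13 to 0.56) in the same order of pairs. DESeq2's Wald test called 1 keratin in each pair with both ligands and 0 in LG268 against GW3965. The interaction, which asks whether the joint effect departs from the sum of the single ones on the log2 scale, was called for 0 keratins (1 at an unadjusted p below 0.05, 0.134% of all genes called, 0.00583% higher), with -0.16 (interval -0.50 to 0.18) for Krt8 and 0.07 (interval -0.23 to 0.37) for Krt18.

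The other keratins of ES cells showed no call with any ligand in the edgeR fit of all libraries. Alternatives called 3 of them: Krt19 with LG268 when only these groups were fitted (adjusted p = 0.00743), Krt20 with both ligands without the filter (0.000193), and Krt5 with both ligands without the filter (0.0245) and by DESeq2's Wald test (0.0359), where Krt5 had 0 counts in ES control. Krt10 had 7.91 and 8.92 CPM with GW3965, 6.46 and 6.58 CPM with LG268 and 6.46 and 6.14 CPM with both, against 9.32 and 7.63 CPM in ES control. All 4 Krt10 libraries with LG268, alone or in both, lay below both control libraries, which these groups share. The log2 fold changes of Krt10 were -0.37 (adjusted p = 0.422) with LG268 and -0.43 (adjusted p = 0.0984) with both by edgeR. Krt19 had 251 and 241 CPM with GW3965, 263 and 266 CPM with LG268 and 189 and 248 CPM with both, against 236 and 241 CPM in ES control, and its 95% interval with both ligands was -0.42 to 0.17 on the log2 scale. Krt7 had 11.2 and 13.4 CPM with GW3965, 10.4 and 10.7 CPM with LG268 and 10.1 and 11.9 CPM with both, against 10.9 and 8.38 CPM in ES control. Krt80 had 3.04 and 2.72 CPM with GW3965, against 1.76 and 1.46 CPM in ES control, a log2 fold change of 0.85 (interval 0.22 to 1.48, adjusted p = 0.6, edgeR). Krt20 had 2.92 and 2.26 CPM with both ligands and 0.484 and 1.34 CPM in ES control (adjusted p = 0.184, edgeR). Desmosome, junction and epithelial transcription factor lists held 0, 1 and 0 called members with GW3965 and 0, 0 and 0 with LG268. With both ligands 2 desmosome genes were higher and 2 lower, 2 junction genes higher and 1 lower, and 2 transcription factors lower. All genes tested were called in 0.32% with GW3965 and 0.851% with LG268, and in 4.83% higher and 6.47% lower with both ligands.

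Krt8 lies on chromosome 15 from 101996698 to 102004482 on the minus strand and Krt18 from 102028180 to 102032027 on the plus strand (GRCm38), so the 2 genes point away from each other. The stretch just before each gene is shown because Krt8 and Krt18 were called higher with both ligands in ES cells and with GW3965 at day 16. Neither was called with 1 ligand alone in ES cells, and at day 17 Krt8 was called and Krt18 was not. Those of Krt5 and Krt13 are shown because these genes appeared by day 16 and were higher with GW3965 at day 17. Sequences are RefSeq's on GRCm38.p6, 5′ to 3′ on the strand of the gene, at chr15:102004483-102004592 (minus), chr15:102027966-102028179 (plus), chr15:101712906-101713155 (minus) and chr11:100121567-100121816 (minus). Both strands were searched, and capitals mark AGGTCA, the half-site bound by LXR, RXR and other nuclear receptors; the Krt5 stretch holds none.
Krt8: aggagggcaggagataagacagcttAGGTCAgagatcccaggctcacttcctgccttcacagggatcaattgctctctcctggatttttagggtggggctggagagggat
Krt18: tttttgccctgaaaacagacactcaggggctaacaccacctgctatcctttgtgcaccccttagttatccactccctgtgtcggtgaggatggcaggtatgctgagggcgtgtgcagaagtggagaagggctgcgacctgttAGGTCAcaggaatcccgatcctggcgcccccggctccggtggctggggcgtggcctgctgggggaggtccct
Krt5: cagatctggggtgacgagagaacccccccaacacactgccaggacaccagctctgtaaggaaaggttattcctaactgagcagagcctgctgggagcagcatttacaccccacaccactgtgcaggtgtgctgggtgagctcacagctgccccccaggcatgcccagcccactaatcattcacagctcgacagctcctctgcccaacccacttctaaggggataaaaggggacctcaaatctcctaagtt
Krt13: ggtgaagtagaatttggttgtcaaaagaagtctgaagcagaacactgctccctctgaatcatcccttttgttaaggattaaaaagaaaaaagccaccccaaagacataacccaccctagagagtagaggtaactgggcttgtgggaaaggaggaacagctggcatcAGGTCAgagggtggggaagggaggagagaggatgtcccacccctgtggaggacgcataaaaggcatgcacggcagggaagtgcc
Within 250 bases before the RefSeq start, AGGTCA was found on either strand in 6 of the 15 tested keratins with a usable entry (Krt8, Krt13, Krt18, Krt20, Krt42 and Krt78) in 7 of the 32 keratins with such an entry whether tested or not, and in 14.02% of 32851 RefSeq promoters over the same 250 bases. The searched windows of Krt8 and Krt18 run into the annotated gene, so the stretches shown are shorter, at 110 and 214 bases. TGANTCA, the AP-1 motif, was found in 1 of the 15 (Krt13), which was also the only 1 of the 32, and in 6.75% of all promoters. TATAAA was found in 4 of the 15 (Krt10, Krt12, Krt20 and Krt31), in 16 of the 32 and in 12.37% of all. A match describes these letters in this window and is no site.

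In the differentiated cultures some keratins of the simple and stratified classes were called higher with GW3965. None was called lower in the main edgeR fit, though alternatives called some lower. In the test of GW3965 at day 16 against day 16, 10 of the 25 keratins were called, all higher; 31.7% of all genes tested were called, and 13% were called higher. The median log2 fold change was 0.43 over the keratins and -0.03 over all genes. When 1 library was left out, 6 to 11 keratins were called. Without day 16 GW3965 replicate 2, which was the higher GW3965 library for 7 of the 10 called genes, 5 of the 10 kept their calls (Krt5, Krt8, Krt10, Krt18 and Krt77), and Krt13 was newly called, as lower (log2 fold change -0.61, adjusted p = 0.0284, edgeR).

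**Figure D3:**
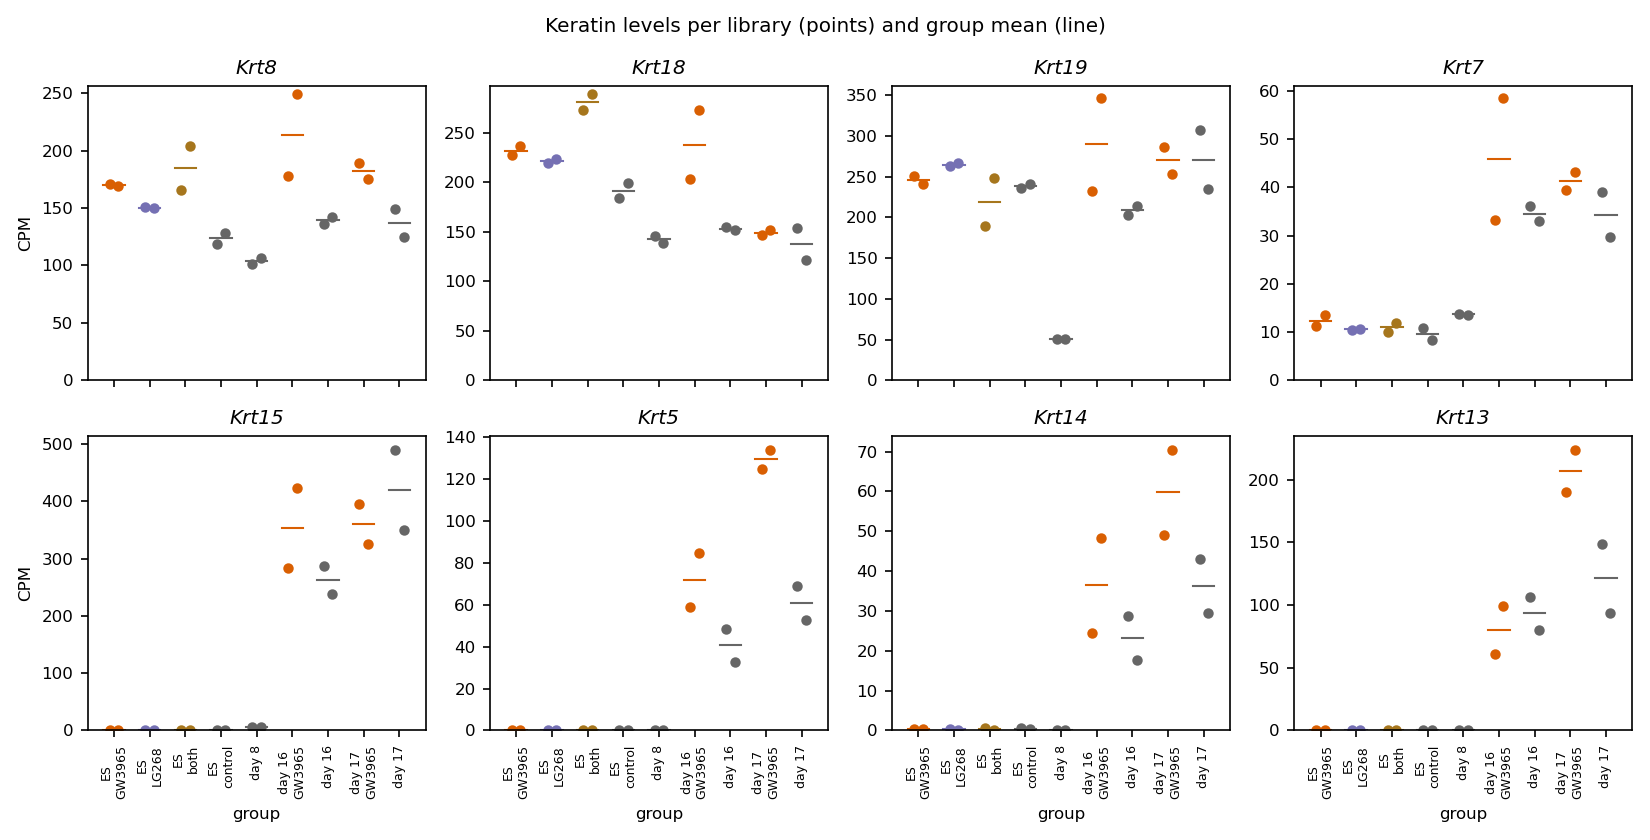
CPM of 8 keratins in every library (points) with the mean of each group (line), GW3965 in orange, LG268 in purple, both ligands in brown and no ligand in grey; each panel has its own linear axis from 0. Krt8 and Krt18 lie above ES control in all 6 ES libraries with ligand, and Krt5 is higher in both GW3965 libraries than in both matched libraries at day 16 and at day 17.

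Simple keratins rose at day 16. Krt8 had 178 and 249 CPM with GW3965 and 136 and 142 CPM without (1.53-fold, SE of log2 0.114, adjusted p = 0.000327, edgeR). Krt18 had 204 and 273 CPM with GW3965 and 155 and 152 CPM without (1.55-fold, SE of log2 0.102, adjusted p = 8.21e-05, edgeR). Krt8 and Krt18 kept their calls under all 12 alternatives, and neither overlapped between groups. Of Krt8, 29.7% of 50-base stretches recur elsewhere, mostly in the pseudogene Krt8-ps, against 0.72% for Krt18. Krt19 had 233 and 347 CPM with GW3965 and 203 and 214 CPM without (1.39-fold, adjusted p = 0.0128, edgeR), and without GW3965 replicate 2 its adjusted p was 0.407. Krt20 had 14.1 and 47.0 CPM with GW3965 and 16.2 and 12.9 CPM without; the groups overlapped, the fitted 2.11-fold rise (adjusted p = 0.0205, edgeR) rested on 1 library, and without it the log2 fold change was -0.03 (adjusted p = 0.948). Krt7, with 33.2 and 58.5 CPM with GW3965 and 36.1 and 33.0 CPM without, was not called (adjusted p = 0.0881, edgeR).

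Of the stratified keratins, Krt5 had 59.1 and 84.5 CPM with GW3965 at day 16 and 48.5 and 32.7 CPM without (1.78-fold, SE of log2 0.165, adjusted p = 0.000732, edgeR), and Krt10 had 39.0 and 35.1 CPM with GW3965 and 23.5 and 25.3 CPM without (1.52-fold, SE of log2 0.119, adjusted p = 0.000621, edgeR). Both kept their calls under all 12 alternatives. Krt1, the partner of Krt10, had 16.3 and 16.1 CPM with GW3965 and 9.47 and 9.53 CPM without (1.71-fold, adjusted p = 0.0221, edgeR), but each of the 4 leave-one-out fits lost the call (adjusted p 0.0585 to 0.102). Krt15 overlapped between groups, with 284 and 422 CPM with GW3965 and 286 and 239 CPM without (1.35-fold, adjusted p = 0.033, edgeR; 0.614 without GW3965 replicate 2). Krt77 (2.44-fold, adjusted p = 0.00913) and Krt79 (3.56-fold, adjusted p = 0.0158) were called by edgeR and lost the call when 1 library was left out (up to 0.128 and 0.254). Krt14, Krt4 and Krt13 were not called: Krt14 had 24.6 and 48.3 CPM with GW3965 and 28.8 and 17.8 CPM without, Krt4 had 60.6 and 76.1 CPM with GW3965 and 71.3 and 69.2 CPM without, and Krt13 had 60.8 and 99.2 CPM with GW3965 and 106 and 80.3 CPM without.

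Other genes moved with GW3965 at day 16. Among all genes tested, 13% were called higher and 18.7% lower. Of 17 desmosome and anchorage genes 6 were higher and 0 lower, and of 19 junction and splicing genes 15 were higher and 1 lower. The lower one was the placental cadherin Cdh3, at 51.6 ± 4.97 CPM with GW3965 and 90.8 ± 4.17 CPM without (SD, n = 2 each). Of the 13 epithelial transcription factors 6 were higher, among them Grhl3 (19.3 ± 3.39 CPM with GW3965, 12.5 ± 1.21 CPM without), which drives skin barrier formation, and 2 were lower. The 8 epidermal and surface ectoderm markers summed to 74.1 and 100 CPM with GW3965 and 65.8 and 59.0 CPM without (4 higher, 1 lower). The 8 mesenchyme markers all fell, summing to 6024 and 4767 CPM with GW3965 and 10240 and 11650 CPM without, and the 7 neuronal markers all rose, summing to 2637 and 2437 CPM with GW3965 and 1635 and 1617 CPM without. No marker of these 3 lists was at 0 in these 4 libraries. The part of such cell types in the keratin changes was not tested.

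At day 17, 7 of the 25 keratins were called with GW3965 against day 17, all higher, where 35.2% of all genes tested were called and 17.2% were called higher. The median log2 fold change was 0.41 over the keratins and 0.02 over all genes. With all libraries kept, Krt23 was called lower at day 17 by limma-voom (log2 fold change -0.50, adjusted p = 0.0422). Without the filter, edgeR newly called Krt23 (-0.49, adjusted p = 0.0492) and Krt15 (-0.22, adjusted p = 0.0117) as lower, and Krt20 and Krt77 as higher. Leaving out 1 library gave 4 to 8 calls; without day 17 replicate 2, which was the lower untreated library for all 7 called genes, 4 keratins were called and 1 of them was lower, Krt15 (log2 fold change -0.44, adjusted p = 0.0465, edgeR).

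Krt5 had 125 and 134 CPM with GW3965 at day 17 and 68.9 and 52.7 CPM without (2.12-fold, SE of log2 0.164, adjusted p = 4.91e-05, edgeR). Krt1 had 17.8 and 35.5 CPM with GW3965 and 12.4 and 6.88 CPM without (2.73-fold, SE of log2 0.253, adjusted p = 0.000177, edgeR), and Krt10 had 38.9 and 49.5 CPM with GW3965 and 30.6 and 25.5 CPM without (1.57-fold, SE of log2 0.121, adjusted p = 0.000323, edgeR). Krt1, Krt5 and Krt10 kept their calls under all 11 alternatives, and in each the GW3965 libraries lay above the untreated ones. Krt13 had 190 and 223 CPM with GW3965 and 149 and 93.6 CPM without (1.70-fold, adjusted p = 0.00393, edgeR; 0.0948 without day 17 replicate 2). Krt8 had 189 and 176 CPM with GW3965 and 149 and 124 CPM without (1.33-fold, adjusted p = 0.00934, edgeR; 0.134 without day 17 replicate 2). Krt14, with 49.1 and 70.3 CPM with GW3965 and 43.1 and 29.6 CPM without (1.64-fold, adjusted p = 0.0407, edgeR), and Krt79, with 1.56 and 1.94 CPM with GW3965 and 0.854 and 0.350 CPM without (2.78-fold, adjusted p = 0.0477, edgeR), lost their calls in 4 and 5 of 11 alternatives, with adjusted p up to 0.345 and 0.281, a block for replicate number among them.

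Krt18, Krt19, Krt15 and Krt4 were among the abundant keratins without a call at day 17. Krt18 had 147 and 152 CPM with GW3965 and 154 and 121 CPM without, a log2 fold change of 0.11 (95% interval -0.11 to 0.33). Krt19 had 287 and 253 CPM with GW3965 and 307 and 235 CPM without (-0.01, interval -0.30 to 0.29). Krt15 had 395 and 325 CPM with GW3965 and 489 and 350 CPM without (-0.22, interval -0.53 to 0.09), and Krt4 had 130 and 110 CPM with GW3965 and 130 and 104 CPM without (0.03, interval -0.20 to 0.27). The GW3965 and untreated libraries overlapped for all 4 genes. Of the companion lists at day 17, 2 of 17 desmosome genes were higher and 1 lower, 2 of 19 junction genes higher and 1 lower, and 3 of 13 epithelial transcription factors higher and 1 lower, with Ovol1 at 7.72 ± 0.684 CPM with GW3965 and 2.997 ± 0.133 CPM without. Across all genes tested, 17.2% were called higher and 18% lower, so none of these lists stood out by its count of higher genes. Epidermal and surface ectoderm markers summed to 97.0 and 110 CPM with GW3965 and 117 and 84.6 CPM without (3 higher, 0 lower), and mesenchyme markers to 9396 and 8514 CPM with GW3965 and 8518 and 9447 CPM without (3 higher, 1 lower). Of the 6 neural progenitor markers 4 were higher and 0 lower, summing to 490 and 611 CPM with GW3965 and 411 and 370 CPM without at day 17, where at day 16 0 were higher and 5 lower. Of the 14 other intermediate filament genes 10 were higher and 2 lower at day 17, where at day 16 1 was higher and 8 lower. The part of these cell types in the keratin changes was not tested.

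**Figure D4:**
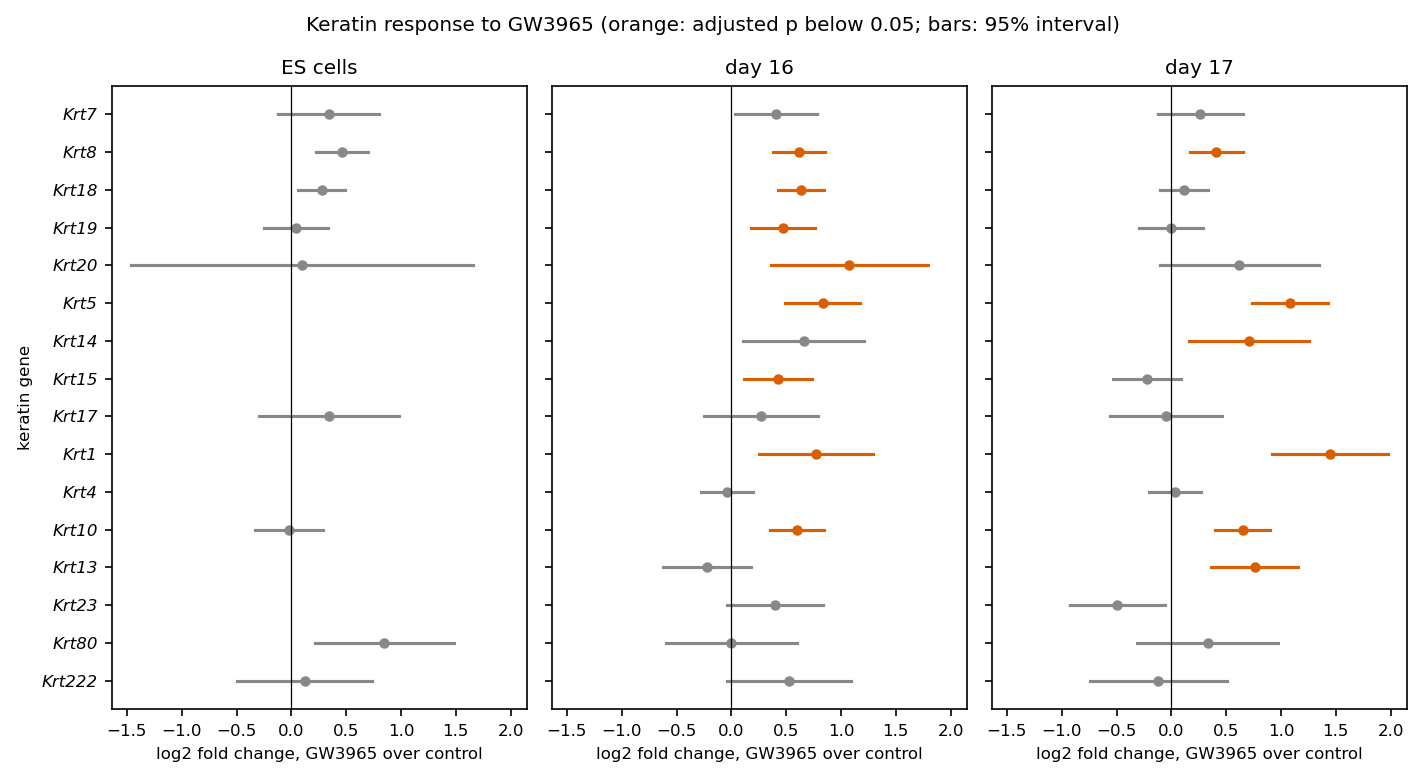
Log2 fold change with GW3965 over its control (points, 95% intervals as bars; orange where the adjusted p was below 0.05) for 16 keratins in ES cells, at day 16 and at day 17; 9 low or widely uncertain keratins are left out, and so are values in ES cells of the 7 genes that are near 0 there. No point is orange in ES cells, Krt5, Krt8, Krt10 and Krt1 are orange at both later days, and Krt18, Krt19, Krt15 and Krt20 are orange at day 16 alone.

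The remaining tested keratins had no call in the main edgeR fit with GW3965 at either late stage, or at day 17 in the case of Krt77. Krt16 had 5.72 and 11.5 CPM with GW3965 at day 16 and 16.3 and 7.57 CPM without, and 9.87 and 17.2 CPM with GW3965 at day 17 and 14.5 and 5.77 CPM without. Krt17 had 9.74 and 17.1 CPM with GW3965 at day 16 and 15.0 and 7.63 CPM without, and 17.0 and 21.4 CPM with GW3965 at day 17 and 21.8 and 17.7 CPM without. Both genes overlapped between the groups at both days. Krt23 had 8.17 and 12.3 CPM with GW3965 at day 16 and 7.90 and 7.65 CPM without, and 9.20 and 10.8 CPM with GW3965 at day 17 and 15.8 and 12.2 CPM without, on opposite sides of the untreated libraries at the 2 days. Krt77 had 16.3 and 9.15 CPM with GW3965 at day 16 and 4.07 and 6.22 CPM without, and 6.16 and 8.71 CPM with GW3965 at day 17 and 5.76 and 1.98 CPM without. Krt9, Krt12, Krt31, Krt42 and Krt75 stayed at or below 1.07 CPM in all late libraries.

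The responses themselves were compared. The GW3965 response at day 17 minus that at day 16 was called for 4 of the 25 keratins, where 37% of all genes tested were called: Krt13 was higher by 0.98 (SE 0.27, adjusted p = 0.00734), and Krt15, Krt18 and Krt23 were lower by a log2 difference of -0.65 (SE 0.211, adjusted p = 0.0198), -0.52 (SE 0.146, adjusted p = 0.00829) and -0.89 (SE 0.295, adjusted p = 0.023), all by edgeR. Leaving out 1 library gave 1 to 8 calls. For Krt19 the difference was -0.48 (adjusted p = 0.0628, edgeR), and for Krt8 it was -0.21 (95% interval -0.55 to 0.13, adjusted p = 0.344). Against the response in ES cells, 1 keratin, Krt10, was called at day 16 (log2 difference 0.62, adjusted p = 0.0317; 14.8% of all genes called, 4.86% higher and 9.89% lower) and again at day 17 (0.67, adjusted p = 0.018, both by edgeR; 18.2% of all genes called, 8.59% higher and 9.65% lower), and these comparisons share the ES libraries. Krt8 was not called in either (0.15, interval -0.18 to 0.49, and -0.05, interval -0.39 to 0.29). If the file names are right, the day 16 and day 17 groups differ in how long GW3965 was present as well as in day and in counting.

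Members differed in how they followed each other over the groups. Across the 9 group means of log2(CPM + 0.1), Krt5 and Krt14 had a Pearson r of 0.98. The 28 pairs among 8 picked keratins (Krt1, Krt4, Krt5, Krt13, Krt14, Krt15, Krt17 and Krt23) ranged from 0.58 to 0.99 with a median of 0.97. The pick is no whole class: Krt23 belongs to the other keratins, and further tested stratified keratins are outside it. With Krt15, those had an r of 0.96 (Krt10), 0.94 (Krt77), 0.795 (Krt16), 0.74 (Krt78), 0.49 (Krt79), 0.28 (Krt9) and -0.796 (Krt12). The group means share the step between the 5 early and the 4 later groups. Krt8 and Krt18 had an r of 0.61, Krt8 and Krt5 of 0.35, and Krt18 and Krt5 of -0.47. The genes most like Krt19 by the same measure were Epb4.1l4b (0.992), Aqp3 (0.985), Perp (0.985), Alox12 (0.982) and Ppl (0.977). Those most like Krt8 were Arhgef37 (0.925), Tnfrsf26 (0.909), Papln (0.892), 5830473C10Rik (0.888) and Plekhd1 (0.878).

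The 25 tested keratins peaked in different groups. By mean CPM, 9 were highest at day 17 with GW3965, 7 at day 16 with GW3965, 4 at day 17 without ligand, 3 in ES cells with GW3965, and 1 each in ES cells with both ligands and at day 8. These are ranks of means without a test, the share over all genes was not taken, and the day 17 libraries were counted differently. Some leads were small, as for Krt4, with 120 CPM at day 17 with GW3965 and 117 CPM at day 17 without. The ES peaks were Krt12, whose reads are uncertain, Krt42 and Krt80 with GW3965 and Krt18 with both ligands. Krt222 was the flattest, at 1.23 to 2.27 CPM over all 18 libraries, and was called in none of the 15 comparisons. Krt6a and Krt6b, whose lettered symbols are outside the rule, share 57.18% and 50.09% of their 50-base stretches with other genes, mostly with each other, so their reads are uncertain. Krt6a had 58.8 and 86.5 CPM at day 17 with GW3965 and 40.8 and 22.6 CPM at day 17, and 21.4 and 46.8 CPM at day 16 with GW3965 and 35.9 and 16.8 CPM at day 16, with 0 in all 8 ES libraries. Krt6b had 8.66 and 23.9 CPM at day 17 with GW3965 and 7.64 and 3.62 CPM at day 17, and 6.47 and 11.9 CPM at day 16 with GW3965 and 21.6 and 6.99 CPM at day 16.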

How the data were processed

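Whole-number read counts per gene were deposited for 18 libraries, 1 file each. The submitters' processing notes name mm10, TopHat2 2.0.7, Cufflinks 2.0.2, HTSeq 0.6.0 and Cuffdiff 2.0.2; their order, the annotation and the strand setting are not given in the sources used here. Summary lines that name no gene stayed out of library sizes (no-feature reads were 42.14 to 43.36% at day 17 and 62.77 to 65.92% elsewhere). Genes passing edgeR's filterByExpr (minimum count 10, total 15; 17166 genes) were scaled by TMM (0.9124 to 1.108) and tested in edgeR 4.0.16 (R 4.3.3) with the quasi-likelihood test, 1 fit of all 18 libraries with 9 residual degrees of freedom, and Benjamini-Hochberg adjustment over all tested genes at 0.05, in 15 comparisons. The fit was tested on simulated data. Depth was 16.75 to 44.79 M gene counts. Floors and the counting intervals given with ratios of counts cover counting error only. Intervals from the edgeR fit rest on its SE, which also takes in the spread between libraries. Levels per kb divide CPM by the joined length of all annotated exons of the gene in GENCODE M21. The members, gene lists and tests were chosen with earlier results of these data known. Every tested keratin was open to naming, companion genes were named from the up to 3 called members of each list with the largest change in each direction at 1 CPM or more, and Krt6a and Krt6b were named after their values were seen. Alternatives were no filter, a stricter filter, DESeq2 1.42.0 (size factors, Wald test), limma-voom (limma 3.58.1), only the groups compared, a replicate block, no day 17 libraries, and each library left out. Replicate numbers did not pair the libraries: over 36 group pairs the correlation of deviations was -0.135 to 0.0991.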

Additional observations from a re-analysis of the deposited data

Results flagged for a closer look

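Responses to GW3965 that differed between stages by edgeR's test of the difference itself are given here as log2 differences. Krt10 responded more at day 16 than in ES cells, by 0.6216 (SE 0.189, adjusted p = 0.0317), and more at day 17 than in ES cells, by 0.6716 (SE 0.191, adjusted p = 0.018, edgeR); 6 of 16 and 4 of 15 alternatives lost these calls. Between day 17 and day 16 the response of Krt13 was higher by 0.9814 (SE 0.27, adjusted p = 0.00734, edgeR) and was lost without day 16 replicate 1 (0.0534). The response of Krt15 differed by -0.652 (adjusted p = 0.0198), that of Krt18 by -0.5221 (0.00829) and that of Krt23 by -0.8901 (0.023), all by edgeR, and they lost the call in 6, 2 and 4 of 15 alternatives. Day, counting and, by the file names, length of exposure cannot be told apart in the last 4.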

How the results depend on the processing

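Counts of called keratins are given for each alternative that moved them by over 1.5 times. Day 17 against day 16 had 8 calls, 5 with DESeq2's Wald test and 3 to 8 with 1 library left out (3 without day 16 replicate 2). GW3965 in ES cells had 0, but 2 with no filter, 1 with the Wald test and 2 with only the groups compared; LG268 had 0, but 1 with no filter and 3 with only the groups compared. Both ligands had 2, but 4 with no filter and 1 to 2 with 1 library left out. LG268 against GW3965 had 0, but 2 with only the groups compared. Both ligands against GW3965 had 0, but 3 with no filter and 1 with the Wald test; against LG268 they had 0, but 4 with no filter, 1 with DESeq2 size factors, 1 with the Wald test, 1 without the day 17 libraries and 0 to 1 with 1 library left out. GW3965 at day 16 had 10, and 6 to 11 with 1 library left out. GW3965 at day 17 had 7, 11 with no filter and 4 to 8 with 1 library left out. The ligand interaction had 0, and 1 with no filter. The response at day 16 minus that in ES cells had 1, but 3 with no filter, 2 with the Wald test, 0 with limma-voom and 0 to 3 with 1 library left out; at day 17 minus ES cells it had 1, and 0 to 1. The response at day 17 minus day 16 had 4, 7 with no filter and 1 to 8 with 1 library left out.

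The Krt20 log2 fold change, GW3965 at day 16 against day 16, was -0.03489 to 1.705 with 1 library left out, negative without GW3965 replicate 2. With a block for replicate number, which did not pair the libraries, day 17 against day 16 had 6 calls, GW3965 at day 17 had 5, GW3965 at day 16 had 10, day 8 had 16 and day 16 had 20. Of 1104 named values under alternatives, 980 kept their side of the threshold, 97 lost and 26 gained the call, and 1 reversed. The 980 include values of Krt8 and Krt18 called in neither fit, whose direction could change. Of the 69 keratin calls in all comparisons, 38 were kept under every alternative and 31 were lost under at least 1. The causes were not tested. Keratins under the 3-count floor cannot be compared at this depth.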
